A study of Mus musculus with 12 samples.

Results

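The TNF superfamily joins a set of membrane-anchored or secreted ligands, which act as trimers, to receptors with cysteine-rich repeats outside the cell. The members described here are the probe sets of the array whose gene symbol begins with Tnfsf (ligands) or Tnfrsf (receptors), together with Tnf, Lta, Ltb, Ltbr, Fas, Fasl, Cd27, Cd40 and Cd40lg. That rule found 36 of 17306 probe sets that are not controls, 1 probe set per gene. Members were chosen by gene symbol, but the family itself was chosen by a measured value, the log2 difference of Tnfsf9 between the groups, so the values of Tnfsf9 are given as a description without a test. Of 42 genes that meet the rule in the RefSeq gene table, 6 had no probe set in the matrix and were not analysed here (Tnfrsf13b, Tnfrsf26, Tnfsf13, Tnfsf15, Tnfsf18 and Tnfsfm13).

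Receptors of the family fall into those with a death domain in their intracellular part, which can assemble complexes with the adaptors Tradd and Fadd and engage caspase-8, and those without, which bind TRAF adaptors and lead to NF-kB and MAP kinases. Decoy receptors bind ligand without passing on a signal. In endothelium TNF and lymphotoxin are known, through Tnfrsf1a, for the induction of leukocyte adhesion molecules and chemokines. Many of the ligands are made mainly by lymphocytes and myeloid cells.

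The arrays, 12 in number, hold RNA from the C166 line, derived from mouse yolk sac and labelled as endothelial, which was transduced with lentivirus at 20% confluency and a multiplicity of infection of 10, given fresh medium at 72 h and collected on day 7. Each of the 3 groups has 4 arrays and carried a GFP vector. The GFP group carried GFP alone, and the VEGF-down and VEGF-up groups in addition an shRNA, each directed at a different region of the promoter of Vegfa, the vascular endothelial growth factor gene. More than 99% of the cells expressed GFP according to the labels. No group without a vector or with an unrelated shRNA was analysed here, and the labels do not say whether replicates were separate cultures, so p-values measure the spread between these samples.

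Vegfa itself had log2 intensities of 7.13 to 7.37 in the GFP arrays, 6.46 to 6.61 in the VEGF-down arrays and 7.35 to 7.68 in the VEGF-up arrays. Of 20 endothelial markers, 7 were above background, among them Kdr and Cd34. The summed intensity of all 20 was 551 to 582 in GFP, 889 to 959 in VEGF-down and 581 to 658 in VEGF-up arrays. The 7 above background did not move together. Between GFP and VEGF-down cells the mean log2 level of Kdr, a VEGF receptor gene, went from 4.96 to 8.30. That of Cd34 went from 8.44 to 8.75, while Egfl7 went from 6.21 to 6.07 and Plvap from 3.88 to 3.48. The defining endothelial genes Pecam1, Cdh5, Tek, Tie1, Vwf and Emcn were below background. Of 18 leukocyte markers on the array, 3 were above background (Cd14, Cd68 and Csf1r), while the pan-leukocyte gene Ptprc was below it at a mean of 2.42. The summed intensity of the leukocyte list was 908 to 1109 in GFP, 863 to 916 in VEGF-down and 541 to 599 in VEGF-up arrays, and its part in the results below was not tested. Most of that sum is Cd14, a gene for a lipopolysaccharide co-receptor, whose mean log2 level was 9.58, 9.42 and 8.54 in the same order. Of 10 smooth muscle and fibroblast markers, 9 were above background. The summed intensity of all 10 was 23840 to 24555, 19780 to 20521 and 20919 to 22043 in the same order. Most of that sum is Acta2, Dcn and Tagln. Mean log2 levels in this order were 5.68, 5.03 and 6.51 for Cnn1, and 6.52, 5.96 and 6.72 for Thy1. The others above background had lower means in both shRNA groups than in GFP cells. Among them Lum was at 8.11, 5.12 and 7.65.

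Most of the family lay at or below background in these cells. The background level was a log2 intensity of 3.07, below which 95% of 67 chemosensory receptor probe sets lay in their mean. Of the 36 members, 13 had a mean over the 12 arrays above this level and 23 did not. Among 13 ligands, 3 were above it: Tnfsf9, the ligand of CD137 that costimulates T cells; Tnfsf12, known as TWEAK; and Tnfsf8, the ligand of CD30. Tnf, Lta and Ltb, which encode TNF and the lymphotoxins, Fasl, Cd40lg, Tnfsf10 (TRAIL), Tnfsf11 (RANK ligand), Tnfsf13b (BAFF), Tnfsf14 and Tnfsf4 were all at or below it. Among 22 receptors, 9 were above background. These were 3 of the 5 with a death domain (Tnfrsf1a, Fas and Tnfrsf21), 5 of the 14 other signalling receptors (Tnfrsf12a, Ltbr, Tnfrsf1b, Tnfrsf4 and Tnfrsf11a) and 1 of 3 decoys (Tnfrsf11b, osteoprotegerin). The remaining probe set above background was Tnfsf13os, a transcript of the strand opposite Tnfsf13, which stayed between 3.72 and 3.75 on all arrays. Tnfsf13os and Tnfsf8 (SD 0.0022 and 0.0035 in GFP arrays) and Tnfrsf4 (SD 0.0035 in VEGF-down arrays) varied little within these groups. Members below background varied as little, such as Tnf (SD 0.0037 in GFP arrays). For these probe sets a level above 3.07 does not by itself show that the RNA was present.

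**Figure D1:**
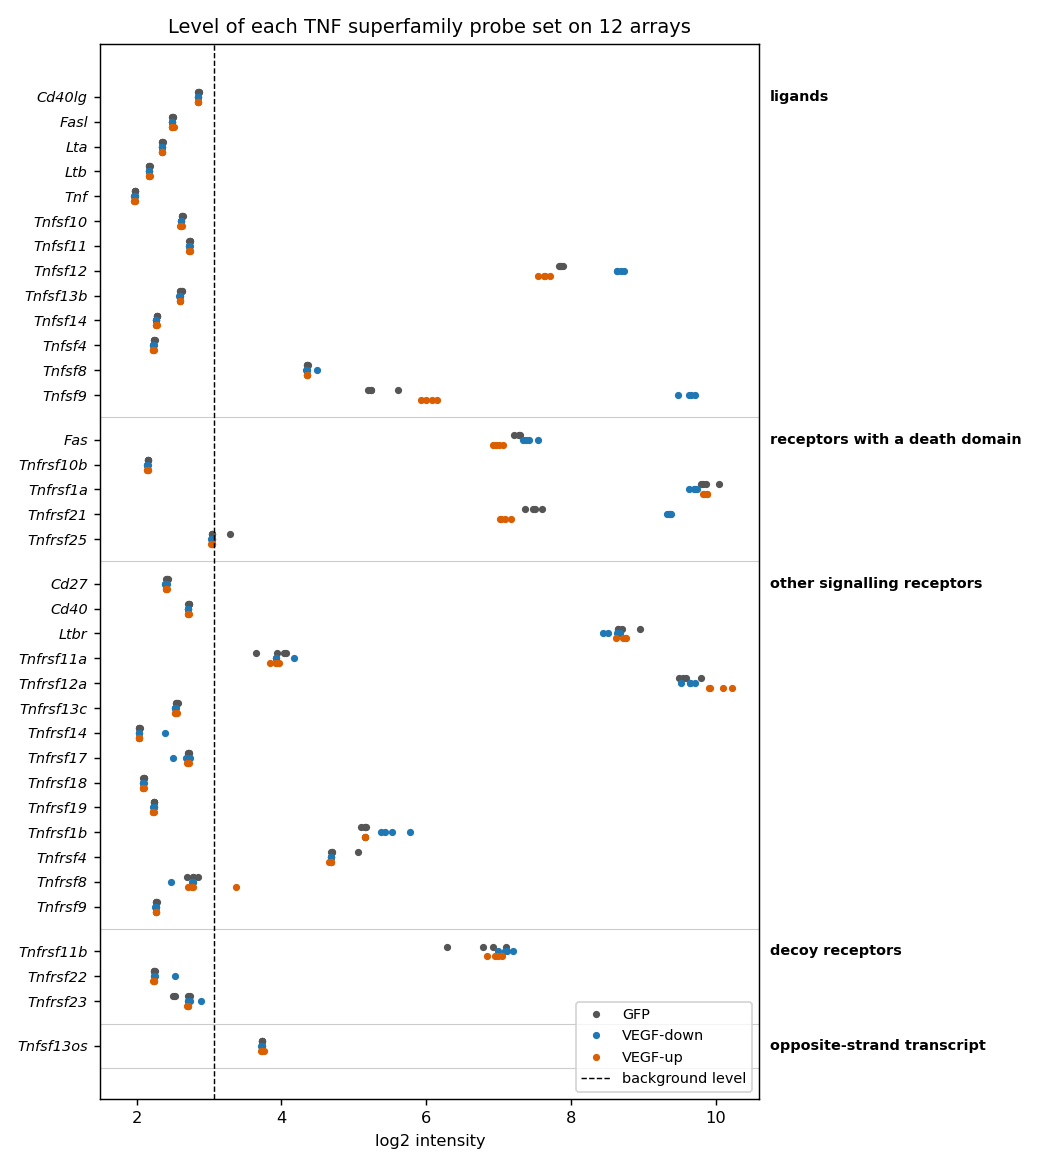
Log2 intensity (x axis) of the 36 TNF superfamily probe sets (y axis, by role) on the 12 arrays, 1 point per array, coloured by group, with the background level of 3.07 as a dashed line. The points of 23 members lie at or left of the line in their mean, and Tnfsf9, Tnfrsf21 and Tnfsf12 show VEGF-down points clear of the others; levels of different probe sets cannot be ranked against each other.

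The 23 members at or below background had single-array log2 levels from 1.97 to 3.38, and 17 of them varied by at most 0.1 over all 12 arrays. Only Tnfrsf8 (CD30) on VEGF-up replicate 4, at 3.38, and Tnfrsf25 on GFP replicate 3, at 3.29, exceeded the background level among these 23. No difference between group means in this set was larger than 0.21. For a member below background the array gives only an upper bound on its level.

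Setting ligands beside their receptors, 20 known ligand and receptor pairs had both partners on the array, 1 of which includes Cd70, a ligand whose symbol lies outside the rule. In 11 pairs the receptor was above background and the ligand was not, as for Fasl and Fas, Tnf and Tnfrsf1a, or Ltb and Ltbr. In 2 pairs the ligand alone was above it, Tnfsf9 with Tnfrsf9 and Tnfsf8 with Tnfrsf8. For Tnfsf8, and for the receptor Tnfrsf4, the limit given above holds. It may also hold for the receptor Tnfrsf1b in GFP and VEGF-up cells (SD 0.0049 in VEGF-up arrays). The same is true of Tnfrsf11a, which lay between 3.92 and 3.93 on the VEGF-down arrays other than replicate 1. Tnfsf12 with its receptor Tnfrsf12a (Fn14) was the 1 pair with both partners above background, and 6 pairs had neither.

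Tnfsf9 had the largest difference of the family. Its log2 levels were 5.20, 5.61, 5.24 and 5.23 on GFP arrays 1 to 4, 9.63, 9.66, 9.48 and 9.71 on the VEGF-down arrays, and 6.15, 6.08, 5.93 and 6.0 on the VEGF-up arrays. The 3 groups did not overlap, with VEGF-down arrays highest, VEGF-up arrays between and GFP arrays lowest, and GFP replicate 2 stood above the other GFP arrays. The mean was 5.32 ± 0.19 (SD, n = 4) in GFP, 9.62 ± 0.10 in VEGF-down and 6.04 ± 0.09 in VEGF-up cells. The log2 difference from GFP cells was 4.30 ± 0.09 (SE of the fit) in VEGF-down cells, a 19.7-fold higher intensity, and 0.72 ± 0.09 in VEGF-up cells, 1.65-fold. Among 17306 probe sets the rise ranked 2 among all rises in the VEGF-down comparison with GFP cells and 34 in the VEGF-up comparison. Without GFP replicate 2 the differences were 4.40 and 0.82. The receptor of this ligand, Tnfrsf9 (CD137), lay between 2.26 and 2.28 on all 12 arrays, below background.

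Leaving aside Tnfsf9, 4 of the other 35 members rose and 2 fell in VEGF-down cells against GFP cells, where 31.0% of all probe sets were called, 14.6% rising and 16.4% falling. A member is called, or said to rise or fall, where limma's moderated test gave a Benjamini-Hochberg adjusted p below 0.05 over all 17306 probe sets. In VEGF-up cells 1 of the 35 rose and 3 fell, where 13.2% of all probe sets were called, 6.73% rising and 6.51% falling. Comparing the shRNA groups, 2 of the 35 were higher and 4 lower in VEGF-up cells, where 30.6% of all probe sets were called, 15.1% higher and 15.5% lower. The arrays of the groups did not overlap for 8, 4 and 6 of the 35 in these comparisons, where 37.1%, 18.0% and 32.8% of all probe sets did not overlap. The median log2 difference over the 35 members was -0.0056, -0.0065 and 0.0008, beside -0.0096, -0.0080 and 0.0012 over all probe sets. Among probe sets with a mean above background, 45.0%, 20.8% and 48.1% were called, and of the 12 such members other than Tnfsf9 5, 4 and 6. Both comparisons against GFP use the same 4 GFP arrays. One call, the fall of Tnfsf13b in VEGF-down cells (-0.02 ± 0.01, adjusted p = 0.0466), was in a probe set below background on every array, and the arrays overlapped.

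**Figure D2:**
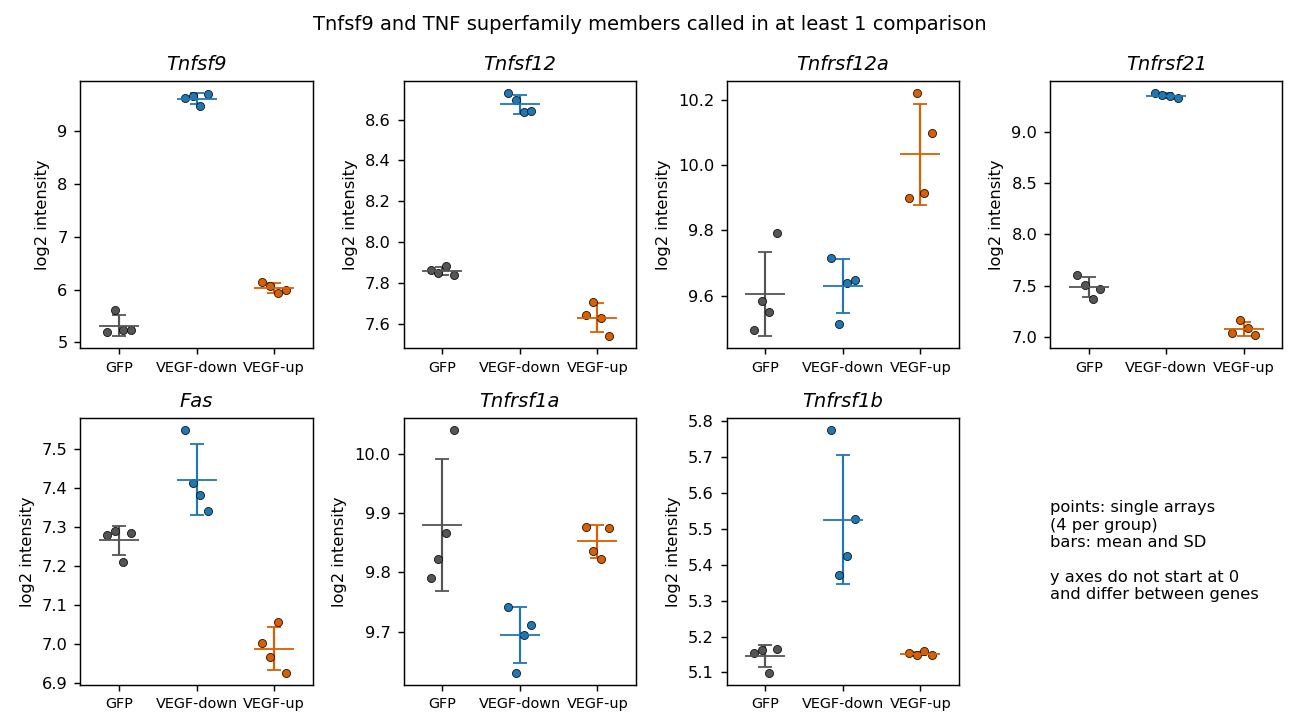
Log2 intensity (y axis) of Tnfsf9 and the 6 called members above background by group, with 1 point for each of the 4 arrays and bars for mean and SD. For Tnfsf12, Tnfrsf21 and Fas the VEGF-down arrays lie above and the VEGF-up arrays below all GFP arrays; y axes differ between genes and do not start at 0.

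Tnfsf12 encodes TWEAK, a ligand that acts on endothelial cells and fibroblasts through Tnfrsf12a. Its log2 levels were 7.87, 7.85, 7.88 and 7.84 on the GFP arrays, 8.73, 8.69, 8.63 and 8.64 on the VEGF-down arrays, and 7.64, 7.71, 7.63 and 7.54 on the VEGF-up arrays. Every VEGF-down array was above, and every VEGF-up array below, all GFP arrays. Tnfsf12 rose 1.76-fold in VEGF-down cells (0.81 ± 0.03, adjusted p = 1.65e-08) and fell by 0.23 on the log2 scale in VEGF-up cells (± 0.03, adjusted p = 0.00112). Between the shRNA groups it differed 2.06-fold (-1.04 ± 0.03, adjusted p = 2.02e-09).

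Tnfrsf12a, the receptor of TWEAK, differed in another way. Its log2 levels were 9.50, 9.59, 9.55 and 9.79 on the GFP arrays, 9.72, 9.52, 9.64 and 9.65 on the VEGF-down arrays, and 9.90, 10.22, 9.91 and 10.10 on the VEGF-up arrays. The VEGF-up arrays were above all others, while GFP and VEGF-down arrays overlapped. In VEGF-up cells it rose 1.34-fold (0.43 ± 0.08, adjusted p = 0.00548). In VEGF-down cells the difference from GFP cells was 0.02 ± 0.08 (adjusted p = 0.827), and -0.22 with an adjusted p of 0.0181 when arrays were scaled to spike-in RNAs. It was 1.32-fold higher in VEGF-up than in VEGF-down cells (0.40 ± 0.08, adjusted p = 0.00280). In the pair of ligand and receptor, the ligand was thus higher and the receptor lower in VEGF-down than in VEGF-up cells.

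Tnfrsf21, known as death receptor DR6, had the largest difference among the receptors. Its log2 levels were 7.60, 7.50, 7.37 and 7.47 on the GFP arrays, 9.38, 9.36, 9.35 and 9.33 on the VEGF-down arrays, and 7.03, 7.17, 7.09 and 7.02 on the VEGF-up arrays. No groups overlapped, and the VEGF-down arrays lay within 0.05 of each other. It rose 3.65-fold in VEGF-down cells (1.87 ± 0.05, adjusted p = 3.98e-10), rank 33 among the rises of all probe sets. In VEGF-up cells it fell by 0.41 (± 0.05, adjusted p = 0.000160). Between the shRNA groups it differed 4.85-fold (-2.28 ± 0.05, adjusted p = 8.01e-11).

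Fas, the death receptor that binds Fas ligand, showed smaller differences with the same signs. Its log2 levels were 7.28, 7.29, 7.21 and 7.28 on the GFP arrays, 7.55, 7.41, 7.38 and 7.34 on the VEGF-down arrays, and 7.00, 6.96, 7.06 and 6.93 on the VEGF-up arrays. The groups did not overlap, but the lowest VEGF-down array was 0.05 above the highest GFP array. Fas rose 1.11-fold in VEGF-down cells (0.16 ± 0.04, adjusted p = 0.0215), though with spike-in scaling the sign turned (-0.092, adjusted p = 0.257) and without GFP replicate 3 the adjusted p was 0.0577. In VEGF-up cells it fell by 0.28 (± 0.04, adjusted p = 0.00172). Between the shRNA groups it was 1.35-fold lower in VEGF-up cells (-0.43 ± 0.04, adjusted p = 1.65e-05).

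Promoter sequence was at hand for 5 of these 7 members. The 250 bases before the RefSeq start are shown for Tnfrsf21 and Fas, which were higher in VEGF-down and lower in VEGF-up cells than in GFP cells, and for Tnfrsf12a, which was higher in VEGF-up cells, so that they can be set side by side. They are from RefSeq on GRCm38.p6, 5′ to 3′ on the strand of the gene, and capitals mark a GC box (GGGCGG, or CCGCCC on the other strand) or an AP-1 site (TGANTCA). Tnfrsf21 is at chr17:43016305-43016554 on the + strand, Fas at chr19:34290409-34290658 on the + strand and Tnfrsf12a at chr17:23677450-23677699 on the - strand.
Tnfrsf21: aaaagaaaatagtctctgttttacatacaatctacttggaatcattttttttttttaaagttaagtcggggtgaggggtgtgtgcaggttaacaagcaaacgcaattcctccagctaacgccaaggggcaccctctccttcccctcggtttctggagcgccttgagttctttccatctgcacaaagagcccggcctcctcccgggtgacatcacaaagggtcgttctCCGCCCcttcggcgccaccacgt
Fas: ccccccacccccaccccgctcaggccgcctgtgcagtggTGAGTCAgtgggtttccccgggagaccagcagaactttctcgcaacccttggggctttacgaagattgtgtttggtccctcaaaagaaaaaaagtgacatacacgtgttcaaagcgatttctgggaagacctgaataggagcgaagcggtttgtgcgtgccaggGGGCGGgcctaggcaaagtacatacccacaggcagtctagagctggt
Tnfrsf12a: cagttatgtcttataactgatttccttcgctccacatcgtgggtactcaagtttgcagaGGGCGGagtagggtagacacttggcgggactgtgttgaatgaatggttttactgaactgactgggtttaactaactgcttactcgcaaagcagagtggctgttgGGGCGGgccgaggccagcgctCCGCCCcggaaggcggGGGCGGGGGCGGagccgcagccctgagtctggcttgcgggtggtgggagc

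The Tnfrsf21 window held 1 GC box, the Fas window 1 GC box and 1 AP-1 site, and the Tnfrsf12a window 5 GC boxes, of which the last 2 abut. No window of the 3 held a TATA box written as TATAAA. Of 32851 windows of this length, 32.7% held a GC box, 6.75% an AP-1 site and 12.4% such a TATA box, on either strand. The windows held 12, 11 and 15 CpG dinucleotides, where the median window held 6. These matches describe letters and were not tied to binding of any factor.

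The receptors of TNF itself differed in opposite directions in VEGF-down cells. Tnfrsf1a, the broadly expressed receptor with a death domain, had log2 levels of 9.79, 9.82, 9.87 and 10.04 on the GFP arrays, 9.74, 9.63, 9.69 and 9.71 on the VEGF-down arrays, and 9.88, 9.84, 9.82 and 9.87 on the VEGF-up arrays. All VEGF-down arrays were below the others, and GFP and VEGF-up arrays overlapped. It fell by 0.19 in VEGF-down cells (± 0.05, adjusted p = 0.0127). In VEGF-up cells the difference from GFP cells was -0.03 ± 0.05 (adjusted p = 0.691). The difference of 0.16 ± 0.05 between the shRNA groups (adjusted p = 0.0279) had an adjusted p between 0.0508 and 0.0826 when VEGF-down replicate 2 or 3 or VEGF-up replicate 1, 2 or 4 was left out.

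Tnfrsf1b, the TNF receptor without a death domain, had log2 levels of 5.15, 5.16, 5.10 and 5.16 on the GFP arrays, 5.78, 5.37, 5.42 and 5.53 on the VEGF-down arrays, and 5.15, 5.15, 5.16 and 5.15 on the VEGF-up arrays. The 4 VEGF-down arrays were above the other 8, which lay within 0.07 of each other. The SD of the VEGF-up arrays, 0.0049, was as small as that of members below background, such as Tnf (0.0055). The GFP and VEGF-up levels may therefore be only upper bounds. Tnfrsf1b rose 1.30-fold in VEGF-down cells (0.38 ± 0.07, adjusted p = 0.00163), a call lost with spike-in scaling (0.13, adjusted p = 0.157). In VEGF-up cells it was at 0.01 ± 0.07 from GFP cells (adjusted p = 0.949), and it was 1.29-fold lower than in VEGF-down cells (-0.37 ± 0.07, adjusted p = 0.00166). Each call given above for Tnfsf12, Tnfrsf12a, Tnfrsf21, Fas, Tnfrsf1a and Tnfrsf1b was in a comparison with arrays that did not overlap. The exact two-sided permutation test then gives p = 0.0286, the smallest that 4 arrays against 4 allow. This p follows from the lack of overlap and adds nothing to it. Tnfrsf4, which was not called, had the same p in VEGF-down against GFP cells. In RNA from whole cultures, fewer cells that express a gene and less of its RNA per cell cannot be told apart.

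**Figure D3:**
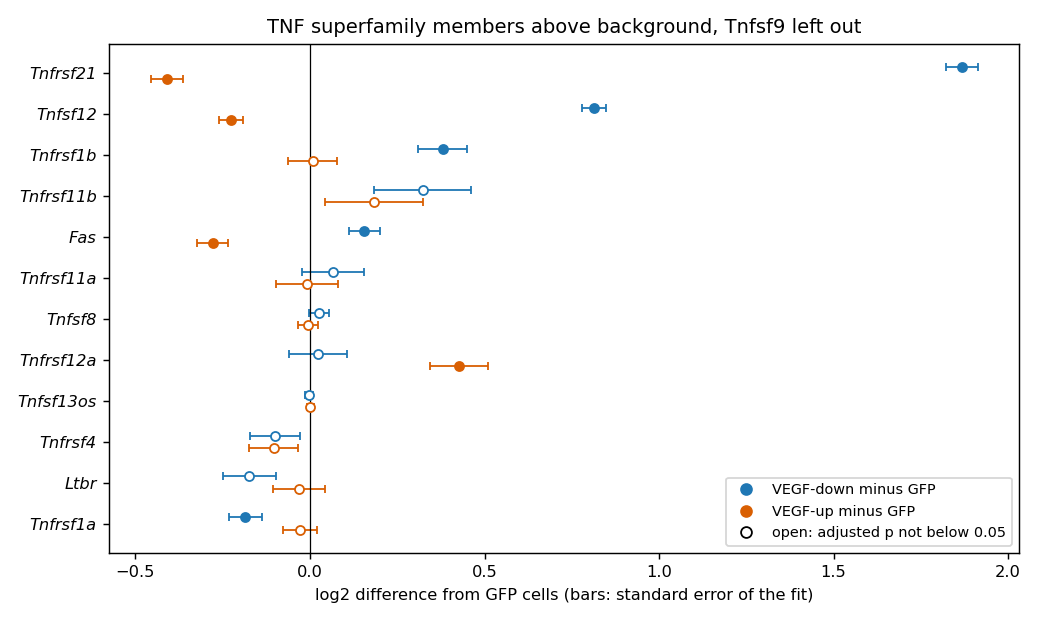
Log2 difference from GFP cells (x axis) of 12 TNF superfamily members above background (y axis) in VEGF-down and VEGF-up cells, with bars for the standard error of the fit and filled points for adjusted p below 0.05; Tnfsf9, at 4.30 and 0.72, is left out. Tnfrsf21, Tnfsf12 and Fas have filled points on opposite sides of 0.

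The other members above background did not pass the test in any comparison. Tnfrsf11b, which encodes osteoprotegerin, a soluble decoy for RANK ligand and TRAIL, had log2 levels of 7.10, 6.78, 6.93 and 6.29 on the GFP arrays, 6.99 to 7.20 on the VEGF-down arrays and 6.84 to 7.05 on the VEGF-up arrays. Its differences from GFP cells were 0.32 ± 0.14 (adjusted p = 0.0983) and 0.18 ± 0.14 (adjusted p = 0.346), and the arrays overlapped, with GFP replicate 4 lowest. Ltbr, the lymphotoxin beta receptor, ranged from 8.65 to 8.96 in GFP, 8.44 to 8.68 in VEGF-down and 8.62 to 8.76 in VEGF-up arrays. Its difference in VEGF-down cells was -0.17 ± 0.08 (adjusted p = 0.0980; 0.0484 with median centring), and -0.42 with an adjusted p of 0.000362 with spike-in scaling. Tnfrsf11a, which encodes RANK, Tnfrsf4 (OX40), Tnfsf8 and Tnfsf13os differed from GFP cells by at most 0.10 in size in either shRNA group. For Tnfrsf4 all VEGF-down arrays (4.68 to 4.69) lay just under all GFP arrays (4.69 to 5.06), a difference of -0.10 ± 0.07.

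By the authors' deposited table for the downregulating shRNA, 3 members were changed: Tnfsf9 at 19.8-fold, Tnfrsf21 at 3.55-fold and Tnfsf12 at 1.86-fold higher. The authors' deposited table for the upregulating shRNA also lists 3, Tnfsf9 at 1.60-fold higher, Tnfrsf12a at 1.35-fold higher and Tnfrsf21 at a signed fold of -1.36. Tnfsf12 and Fas, called lower in VEGF-up cells here, had folds of 1.17 and 1.21, under the smallest fold of 1.22 that the authors' deposited table lists.

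With spike-in scaling the median log2 difference over all probe sets moved to -0.26 for VEGF-down against GFP cells, -0.14 for VEGF-up against GFP cells and 0.12 between the shRNA groups. As deposited these medians were -0.0096, -0.008 and 0.0012, and each direction above is on the deposited scale unless another is named. With spike-in scaling Tnfsf12 (0.57) and Tnfrsf21 (1.62) still rose in VEGF-down cells, and Tnfrsf12a (0.30) still rose in VEGF-up cells (adjusted p = 0.0176). Tnfsf12, Tnfrsf12a, Tnfrsf21, Fas, Tnfrsf1a and Tnfrsf1b each passed the test between the shRNA groups, with the sign given above, under quantile normalization, median centring and spike-in scaling.

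Of the 36 members, 7 lie on chromosome 17, which also carries Vegfa, and 3 of these were above background: Tnfsf9, Tnfrsf21 and Tnfrsf12a. Of 507 probe sets above background on this chromosome, 39.4% were called in VEGF-down cells, 18.1% in VEGF-up cells and 44.2% between the shRNA groups, beside the 45.0%, 20.8% and 48.1% over all chromosomes. Leaving aside Tnfsf9, 1, 2 and 2 of the remaining 2 members, Tnfrsf21 and Tnfrsf12a, were called in these comparisons. Tnf, Lta, Ltb and Tnfsf14, the others on chromosome 17, were below background on every array.

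Downstream of the receptors, 44 genes of a list of adaptors, kinases, caspases, ubiquitin enzymes, NF-kB subunits, their inhibitors and ligand sheddases were measured, 42 of them above background. Some of these hardly varied. Traf6 and Nfkbib ranged over 0.0264 and 0.0415 on all arrays. The SD was 0.0018 for Ikbkg and 0.0021 for Traf5 in VEGF-down arrays, and 0.0025 for Tab1 in GFP arrays. Such levels above background do not by themselves show that the RNA was present. The pathway list was chosen with earlier results of these data known, so the shares called in each comparison only describe it. In VEGF-down cells 8 rose and 14 fell, 22 of 44, against 31.0% of all probe sets and 45.0% of those above background. The split was 6 to 19 with median centring and 2 to 34 with spike-in scaling. The median log2 difference was -0.01, as over all probe sets. Cflar, which encodes the caspase-8 inhibitor FLIP, rose by 0.57 ± 0.03 (adjusted p = 5.63e-08). Timp3, which inhibits the TNF sheddase, rose by 0.52 ± 0.02, the deubiquitinase gene Cyld by 0.30 ± 0.03 and the NF-kB subunit gene Nfkb2 by 0.26 ± 0.05. With spike-in scaling the rises of Cyld (0.05) and Nfkb2 (0.01) did not pass the test. Among the falls, Tab2, an adaptor that links TRAF6 to the kinase TAK1, was at -0.83 ± 0.03 (adjusted p = 7.10e-09). The IkB kinase gene Ikbkb (-0.52 ± 0.04), the NF-kB inhibitor gene Tnfaip3, which encodes A20 (-0.42 ± 0.07), and Rela, which encodes the p65 subunit (-0.40 ± 0.04), also fell.

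In VEGF-up cells 3 pathway genes rose and 14 fell, 17 of 44, against 13.2% of all probe sets and 20.8% of those above background. Because the list was chosen with earlier results known, this share is a description and was not tested for an excess. With spike-in scaling 1 rose and 21 fell. The median was -0.04, beside -0.01 over all probe sets. The largest falls were those of Birc3 (-0.67 ± 0.04, adjusted p = 3.74e-06), which encodes the ubiquitin ligase cIAP2, and of the NF-kB inhibitor genes Nfkbie (-0.57 ± 0.03) and Nfkbia (-0.52 ± 0.04). Relb, the subunit of the noncanonical NF-kB pathway, followed at -0.38 ± 0.08. Tab2 rose by 0.32 ± 0.03, and Ikbkg (0.14 ± 0.03) and the sheddase gene Adam10 (0.11 ± 0.03) rose as deposited, but with spike-in scaling they were at 0.01 and -0.02 and did not pass.

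Between the shRNA groups 8 pathway genes were higher and 15 lower in VEGF-up cells, 23 of 44, against 30.6% of all probe sets and 48.1% of those above background. This excess of lower genes depends on the scaling: 17 were higher and 14 lower with median centring, and 11 higher and 10 lower with spike-in scaling. Tab2 differed most, with group means of 10.14 in GFP, 9.31 in VEGF-down and 10.46 in VEGF-up cells, a difference of 1.15 ± 0.03 between the shRNA groups (adjusted p = 5.06e-10). Ikbkb (0.52), Map3k7, which encodes TAK1 (0.36), and Traf2 (0.35) were also higher in VEGF-up cells. Birc3 (-0.91), Nfkbie (-0.63), Birc2, which encodes cIAP1 (-0.63), and Timp3 (-0.59) were lower. These 8 differences kept their sign and their call with each of quantile normalization, median centring and spike-in scaling.

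**Figure D4:**
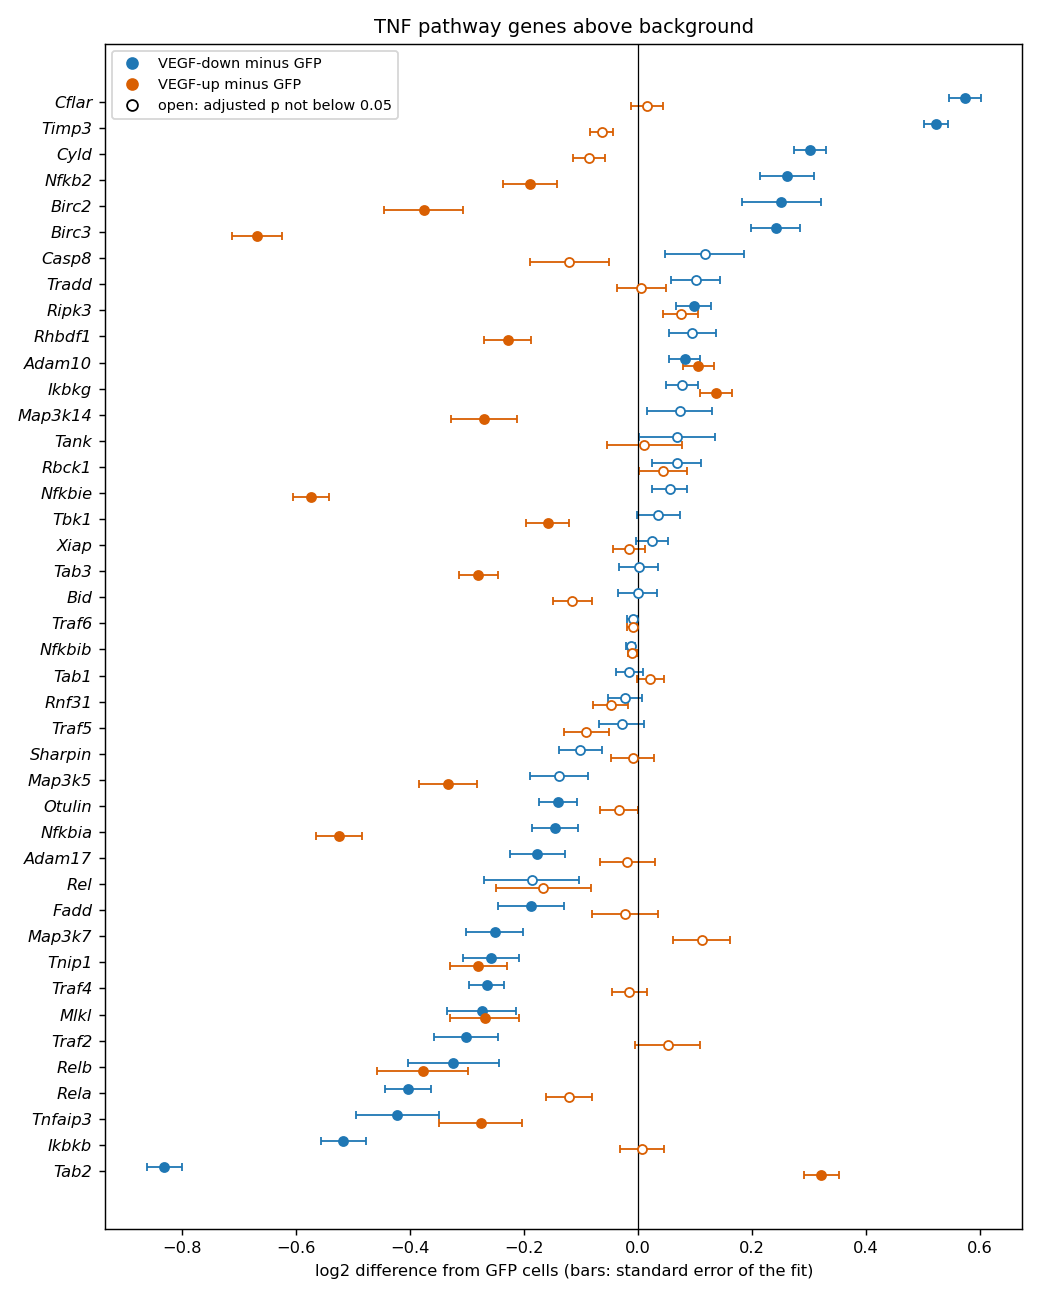
Log2 difference from GFP cells (x axis) of 42 TNF pathway genes above background (y axis, ordered by the VEGF-down difference), with bars for the standard error of the fit and filled points for adjusted p below 0.05. Tab2 has its VEGF-down point at -0.83 and its VEGF-up point at 0.32, while Birc3, Nfkbie and Nfkbia have their VEGF-up points furthest left.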

How the data were processed

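RNA of 12 C166 samples was profiled, 4 per group, with groups taken from the sample titles. The authors deposited 1 intensity for each probe set; the submitters' processing notes name GCRMA and no version of it. GCRMA subtracts nonspecific signal estimated from probe sequence before arrays are made comparable, so low values gather near a floor. The values run from 3.04 to 17470.06 and were read as linear. The authors also deposited 1 table per shRNA with a signed fold change and t statistic (scores, per the file headers), and p-values and q-values, per the file headers; the test behind them is not given in the sources used here, and only the folds were used.

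The log2 of each intensity was used as it stands. Using 1 mean for each group, all 12 arrays and 17306 probe sets entered a fit with limma 3.58.1 in R 4.3.3 (lmFit, eBayes with a variance trend), two-sided, with adjustment by Benjamini-Hochberg over all probe sets and a threshold of 0.05. The fit was tested on simulated data. Single members were also compared by an exact permutation test. Symbols came from the platform table and RefSeq (GRCm38.p6), with a match by Entrez number for each of the 16464 named probe sets; 842 carry no name. Array number limits the precision. No array batch is given in the sources used here.

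The members and the lists of pathway and marker genes were chosen with earlier results of these data known. Values on every array are given for members called in at least 1 comparison with a group mean above background; of the pathway list, the 4 largest called rises and falls per comparison are named. Alternatives were quantile normalization, median centring, scaling to 24 poly-A spike-in probe sets, only probe sets above background, an offset of 16, no variance trend, only the groups compared, a replicate block and leaving out each array.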

Additional observations from a re-analysis of the deposited data

Results flagged for a closer look

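The 13 members above background formed 39 groups of 4 arrays. In 6 of them the gap of an array to the nearest other, as a part of the group's range, exceeded Dixon's 95% critical value. Chance gives about 1 in 20 only where values scatter normally. Groups with nearly constant values, such as those of Tnfsf8, Tnfrsf4 and Tnfrsf11a below, need not do so, so these rates cannot be compared. Tnfsf9 was high on GFP replicate 2, at a log2 level of 5.61 where the others lay between 5.20 and 5.24. GFP replicate 3 was low for Fas, at 7.21 (others 7.28 to 7.29), and for Tnfrsf1b, at 5.10 (others 5.15 to 5.16). Tnfrsf4 was high on GFP replicate 4, at 5.06 (others 4.69 to 4.70). Tnfrsf11a was high on VEGF-down replicate 1, at 4.17 (others 3.92 to 3.93), and Tnfsf8 on VEGF-down replicate 4, at 4.49 (others 4.34 to 4.36).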

How the results depend on the processing

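The counts of called members and pathway genes stayed within 1.5 times the reported ones under quantile normalization, an offset, no variance trend, fewer probe sets, fewer groups and the replicate block; counts of members here include Tnfsf9. Median centring gave 24 called members in VEGF-down cells (5 rose, 19 fell) and 25 between the shRNA groups (20 higher, 5 lower), of which 7 and 8 were above background. Spike-in scaling gave 31 called members (3 rose, 28 fell; 9 above background) and 36 pathway genes (2 rose, 34 fell) in VEGF-down cells. Over all probe sets the calls in VEGF-down cells numbered 10708 with median centring and 14645 with spike-in scaling, beside 5358, and rises made up 23.77% and 5.89% of them, beside 47.05%. In VEGF-up cells rises were 50.85% of the calls as deposited and 9.11% with spike-in scaling, and between the shRNA groups 49.32%, 78.27% with median centring and 71.47% with spike-in scaling; the cause was not tested.

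With spike-in scaling the sign turned for Fas (-0.092) and Tnfrsf12a (-0.22) in VEGF-down cells and for Tnfrsf1b (-0.12) in VEGF-up cells. Leaving out an array in turn gave 6 to 8 called members in VEGF-down cells, 5 to 6 in VEGF-up cells and 6 to 7 between the shRNA groups, and 19 to 22, 14 to 18 and 20 to 23 pathway genes. It turned the sign of small differences that were not called: Tnfrsf12a in VEGF-down cells ran from -0.013 to 0.085, and in VEGF-up cells Tnfrsf1a from -0.058 to 0.026 and Tnfrsf1b from -0.0076 to 0.014. Of 144 values for the 6 named members other than Tnfsf9 with an array left out, 134 kept their sign and their side of the threshold.

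Equal replicate numbers did not pair arrays: the deviations of same-numbered arrays from their group means correlated between -0.091 and 0.163 across genes. With the replicate number as a block, 6, 5 and 7 members and 18, 15 and 22 pathway genes were called in the 3 comparisons.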

Other observations

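Eda2r, a receptor of the superfamily whose symbol lies outside the rule and which was chosen here after its values were seen, binds a form of ectodysplasin. Its log2 levels were 8.47, 8.69, 8.33 and 8.29 on the GFP arrays, 9.14, 9.37, 9.21 and 9.24 on the VEGF-down arrays and 9.02, 9.08, 9.11 and 9.11 on the VEGF-up arrays. Both shRNA groups lay above all GFP arrays. Its mean was 1.74-fold higher in VEGF-down cells (0.80 ± 0.08, SE of the fit) and 1.55-fold higher in VEGF-up cells (0.63 ± 0.08). These values are a description without a test, because they led to the choice of the gene. Edar and Ngfr, receptor genes also outside the rule, were below background, with means of 2.07 and 2.28. The ligand gene of Eda2r, Eda, was below background in all groups, between 2.34 and 2.36.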
